A study of Arabidopsis thaliana with 24 samples.

Results

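The effect of constant light on the transcripts of Arabidopsis thaliana seedlings was examined while the clock repressor TOC1 was switched on. It was measured by setting 3 arrays of ethanol-treated ALC::TOC1 seedlings kept in constant light (LL) against 3 arrays of the same line and treatment kept in light-dark cycles (LD). These 6 arrays, grouped by their labels, belong to a series of 24 Affymetrix ATH1 arrays. The comparison itself was chosen with earlier results of these data known. The series holds 8 groups of 3: LL or LD, ALC::TOC1 or Col-0, ethanol or mock. ALC::TOC1 seedlings carry a transgene that produces TOC1 when ethanol is given, in the Col-0 ecotype, and Col-0 without the transgene is the wild type.

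All seedlings were 13 days old. They had grown for 12 days in cycles of 12 h light and 12 h dark, after which the LL groups spent 1 day in constant light and the LD groups stayed in the cycle. They were then submerged for 3 h in Murashige-Skoog medium with 2.5% ethanol (EtOH) or without it (mock), and were harvested 1 h after the time of lights-on (ZT1). If the harvest followed the treatment directly, the medium was applied 2 h before lights-on, when LD seedlings were in the dark and LL seedlings in the light; the labels do not say so. Every group, the controls included, also received MG132, an inhibitor of the proteasome, at a labelled 20 mM. The line has no control with an empty switch here, and neither the clone nor the cells in which the switch acts are given in the labels. The replicates are not stated to be separate cultures, so p-values measure only the spread between these samples. In whole seedlings, fewer cells of a type and less RNA per cell cannot be told apart.

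The plant clock is a set of genes that repress each other in turn across the day, and TOC1 is the evening member that represses the morning genes. Light-dark cycles reset this clock at each dawn and dusk, and in constant light it runs on without them. Dawn also brings a change in carbon supply, since leaves use stored starch in the night, or amino acids when starch runs out, and photosynthesis in the light. Heat shock proteins are chaperones that hold or refold damaged proteins, and the small ones among them are nearly silent in unstressed leaves.

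Values are RMA expression, a log2 scale on which a difference of 1 is a doubling of the signal, and they are compared between arrays and not between genes. Of 22746 probe sets, 4991 differed between LL and LD in induced seedlings by limma at a Benjamini-Hochberg adjusted p under 0.05, which is 21.9%. Of these, 2551 (11.2%) were higher in LL and 2440 (10.7%) were lower. Among the 717 (3.15%) that also differed at least 2-fold, falls were the more frequent, with 235 higher and 482 lower. The LL and LD arrays did not overlap in 36.9% of probe sets, and LL was the lower in 16.7%. Among 13286 genes that could be named, 1358 (10.2%) were called higher and 1217 (9.16%) lower, and the median difference over all of them was 0.04. TOC1 had no named probe set, so its induction was not analysed here; CCA1, LHY, PRR5, PRR7, PRR9, ELF3, ELF4 and LUX were likewise not analysed here.

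Array medians lay between 5.23 and 5.31 in LL and between 5.3 and 5.32 in LD, and arrays of a group correlated at 0.992 or more. The 3′/5′ difference of the GAPDH control, a sign of RNA quality, was 0.969, 1.15 and 1.15 in LL, against 0.78, 0.827 and 0.896 in LD. The LL arrays were thus all above the LD arrays in this measure, with an exact two-sided permutation p of 0.1, the smallest that 3 against 3 can give. The actin control went the other way (4.14 ± 0.159 in LL and 4.54 ± 0.206 in LD, SD, n = 3 each, exact permutation p = 0.1) and the ubiquitin control was 0.951 ± 0.0618 in LL and 0.96 ± 0.0594 in LD (exact permutation p = 1.0, n = 3 each). With the GAPDH value as a covariate, an alternative chosen after seeing the data, 4590 probe sets were called. Among cell type markers, EXPA7 and EXPA18 (root hair expansins), the only root markers measured out of 14, were both called higher in LL, and their mean level was 4.62, 4.75 and 4.82 in LL, against 4.17, 4.01 and 3.84 in LD. FMA, the guard cell regulator and the only shoot marker measured out of 14, fell by 0.55. The part of root share or guard cell share in the other results was not tested.

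The largest differences were falls of heat shock genes. The largest falls and rises named here and below were taken only from genes whose LL and LD arrays did not overlap. In those genes the absence of overlap follows from the choice. Of 15 measured genes of a heat shock and chaperone list, 13 were lower in LL and none was higher, against 9.16% of all named genes called lower. The median difference over the 15 was -4.13, against 0.04 over all named genes. AT1G54050, a small heat shock protein locus, had 5.74, 5.94 and 5.33 in LL, against 11.14, 11.62 and 10.95 in LD. It fell by 5.57 ± 0.44 (SE), or 47.4-fold, with an adjusted p of 1.25e-08. No LL array came near an LD array.

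AT5G48570, which encodes an FK506-binding protein of the heat shock response, had 5.12, 5.44 and 4.82 in LL, against 10.24, 10.98 and 10.12 in LD, and fell by 5.32 ± 0.46 (adjusted p = 4.29e-08). AT5G51440, entered in the list as a small heat shock protein locus, had 5.32, 5.58 and 5.27 in LL, against 9.90, 10.19 and 10.15 in LD, and fell by 4.69 ± 0.26. Its adjusted p of 1.44e-10 was the smallest of the list. In both genes all LL arrays lay more than 4 units below all LD arrays. AT1G53540 and AT2G29500, also small heat shock protein loci, fell by 4.90 and 4.56.

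A further 3 small heat shock protein genes were dim in LL. AT5G37670 had 3.5, 3.65 and 3.5 in LL, against 7.83, 8.49 and 8.09 in LD. AT1G52560 had 2.96, 3.15 and 3.11 in LL, against 7.38, 8.22 and 7.04 in LD. ATHSP22.0 had 3.71, 3.67 and 3.73 in LL, against 7.74, 8.22 and 7.55 in LD. Each LL mean was under 4 log2 units, and whether such values lie above background was not tested. The differences were -4.59, -4.47 and -4.13, and no LL array overlapped an LD array.

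The partners of the large chaperones fell too. Hop3, a co-chaperone that links Hsp70 to Hsp90, had 6.06, 6.70 and 6.28 in LL, against 9.75, 10.33 and 9.92 in LD, and fell by 3.65 ± 0.23 (adjusted p = 1.05e-09). Fes1A, which exchanges the nucleotide of Hsp70, had 7.25, 7.87 and 7.28 in LL, against 10.36, 10.75 and 10.67 in LD, and fell by 3.13. All LL arrays of both genes were lower. AT2G20560, another locus of the list, fell by 3.54. HSA32, needed for lasting heat tolerance, fell by 1.87 and BOB1, a chaperone needed for development and heat tolerance, by 1.30. Of the list, AT4G21870 (-0.33, adjusted p = 0.211) and AT5G47600 (0.01, adjusted p = 0.96) did not pass the test. The count of 13 lower was the same with each of the 6 arrays left out in turn and with the GAPDH covariate, 14 with array weights and 10 when only probe sets with a mean of at least 5 log2 units were tested.

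**Figure D1:**
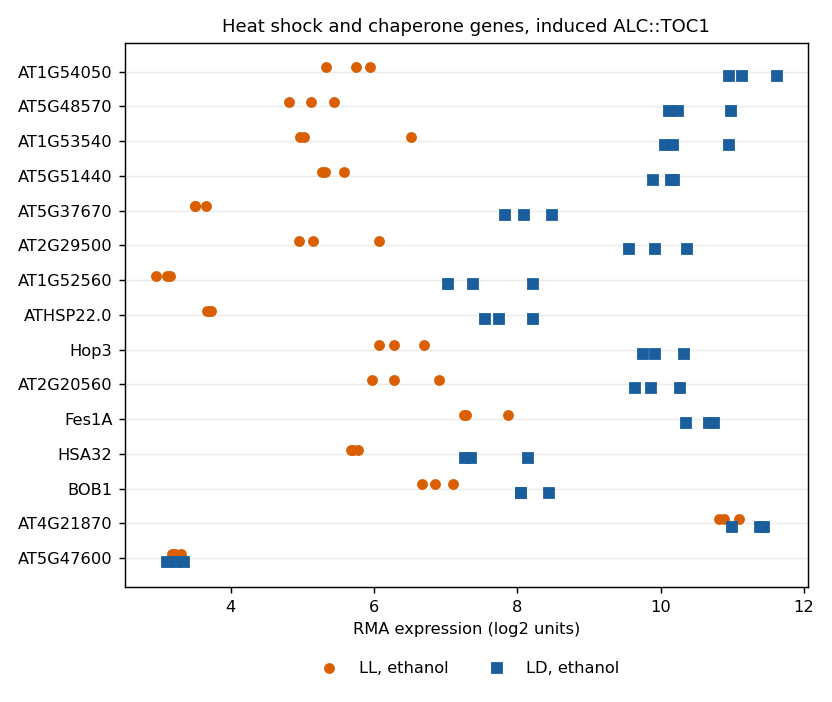
RMA expression (log2 units) of the 15 measured heat shock and chaperone genes in the 3 LL arrays (circles) and the 3 LD arrays (squares) of induced ALC::TOC1. In 13 genes all LL arrays lie below all LD arrays; AT4G21870 and AT5G47600 overlap.

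Other stress genes outside the list fell as well. Hsp70-2, an Hsp70 chaperone, had 6.94, 7.59 and 6.83 in LL, against 8.83, 9.15 and 9.38 in LD, and fell by 2.0 ± 0.30. SGT1A, a co-chaperone of immune receptors, fell by 1.90. AT2G21640, a locus of the list of detoxification and mitochondrial stress genes, had 6.2, 6.16 and 6.12 in LL, against 9.12, 9.61 and 9.01 in LD, and fell by 3.09. LL arrays of all 3 genes lay below the LD arrays. AT1G30070, for which no role is given here, was the only one of the 10 largest falls that was not in the heat shock list, with 6.03, 6.31 and 6.15 in LL, against 9.47, 10.10 and 9.56 in LD.

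Genes of osmotic, cold and calcium responses were among the next largest falls. OSM34, an osmotin of pathogen and salt defence, had 4.87, 4.76 and 4.82 in LL, against 7.68, 7.36 and 6.77 in LD, and fell by 2.46 ± 0.60 (adjusted p = 0.00495). COR15A, a chloroplast protein that protects membranes in the cold, had 7.20, 7.21 and 6.55 in LL, against 10.26, 8.67 and 8.85 in LD, and fell by 2.27. CML37, a calmodulin-like calcium sensor, had 4.0, 4.72 and 4.43 in LL, against 6.35, 7.28 and 6.32 in LD, and also fell by 2.27. All LL arrays were lower, and for COR15A the first LD array stood above the other LD arrays. Of 9 measured genes of the calcium and rapid stress list, 3 fell and none rose, against 9.16% of all named genes called lower. CML23 fell by 0.98 and CML41 by 0.54 beside CML37. COR15A was the only one of 5 measured cold, drought and ABA genes that was called.

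UDP-glycosyltransferases attach sugars to small molecules, by which cells store or inactivate them. Of 47 measured, 12 fell and 5 rose, against 9.16% of all named genes called lower and 10.2% called higher, so that the rises were near the share of all genes. The median over the 47 was 0.00, and whether falls outnumbered rises was not tested. UGT73C1 had 5.67, 5.53 and 5.37 in LL, against 7.64, 7.45 and 7.13 in LD, and fell by 1.88 ± 0.20 (adjusted p = 8.73e-07). UGT76E11 fell by 1.64 and UGT73B5 by 1.33, while the largest called rise of the family was 0.86, in UGT76E2. The 5 rises were 2 to 4 when 1 array was left out in turn and 2 with the GAPDH covariate, whereas the 12 falls were 10 to 11 and 12. GT72B1, a glucosyltransferase of foreign compounds, fell by 1.89 and IAGLU, an auxin glucosyltransferase, by 1.64.

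Of 12 measured detoxification and mitochondrial stress genes, 6 fell and 1 rose, against 9.16% and 10.2% of all named genes. The glutathione transferases GSTU16 (-0.71), GSTU18 (-0.54) and GSTU28 (-1.05) were among the falls. GSTU22 was the rise, at 0.99 ± 0.27 (adjusted p = 0.0112), and was not called without LD replicate 2 (adjusted p = 0.0786). Of 26 cytochrome P450s, a family of oxidising enzymes, CYP84A4 rose by 0.57, CYP71B5 and CYP71B34 fell by 0.59 and 0.79, and the others were not called.

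Among transport, vitamin and hormone genes, GTR1, a glucosinolate transporter, had 7.86, 7.59 and 7.30 in LL, against 9.86, 10.21 and 9.19 in LD, and fell by 2.17 ± 0.24. THIC, which makes the pyrimidine of thiamine, had 8.31, 7.96 and 7.95 in LL, against 10.23, 10.10 and 9.55 in LD, and fell by 1.89 (adjusted p = 1.28e-08). GLR2.7, a glutamate receptor-like channel, fell by 1.76. The LL arrays of these 3 genes were all lower than the LD arrays. SBT3.5, a subtilase, fell by 1.59, OCT5, an organic cation transporter, by 1.53, and OPCL1, which activates a jasmonate precursor, by 1.53. HYH, a homologue of the light regulator HY5, was the only called member of 2 measured light signalling genes and had 7.78, 7.81 and 7.75 in LL, against 9.11, 9.17 and 9.0 in LD, so that it fell by 1.32.

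**Figure D2:**
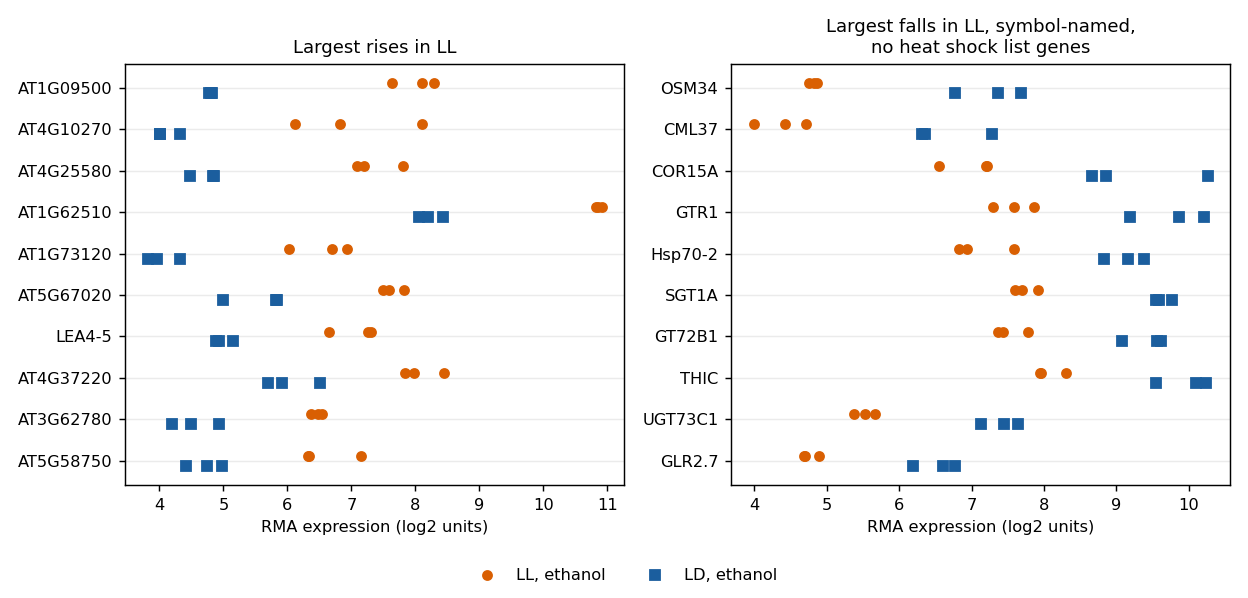
RMA expression (log2 units) in the 3 LL arrays (circles) and 3 LD arrays (squares) of induced ALC::TOC1, for the 10 largest rises (left) and the 10 largest falls among genes with a symbol and outside the heat shock list (right). The 20 genes were picked from those in which no LL array overlaps an LD array, so the absence of overlap follows from the choice.

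The rises were smaller than the falls, and most of the largest were in loci for which the annotation used here gives no symbol. AT1G09500 had 7.64, 8.30 and 8.10 in LL, against 4.81, 4.83 and 4.78 in LD, a rise of 3.21 ± 0.32 (adjusted p = 3.83e-07). AT4G10270, a locus of the low oxygen list, had 8.10, 6.12 and 6.82 in LL, against 4.01, 4.32 and 4.01 in LD, and rose by 2.90. AT1G62510 had 10.82, 10.91 and 10.85 in LL, against 8.19, 8.06 and 8.42 in LD, and rose by 2.64 ± 0.20. LL was above LD in each array of these loci, although the LL arrays of AT4G10270 were spread over about 2 units. AT4G25580, AT1G73120, AT5G67020, AT4G37220, AT3G62780 and AT5G58750 rose by 1.89 to 2.64. LEA4-5, a late embryogenesis abundant protein of dehydrating tissue, had 6.65, 7.26 and 7.30 in LL, against 4.93, 5.15 and 4.89 in LD, and rose by 2.08.

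Among genes with a symbol, picked after their values were seen, some of the largest rises were in metabolic enzymes. ICL, isocitrate lyase of the glyoxylate cycle, had 8.23, 7.05 and 7.25 in LL, against 5.57, 5.67 and 5.72 in LD, a rise of 1.85 ± 0.47 (adjusted p = 0.0061). ATSPS4F, a sucrose-phosphate synthase, had 8.0, 8.40 and 8.47 in LL, against 7.05, 6.86 and 6.55 in LD, and rose by 1.47. SCPL34, a serine carboxypeptidase-like protein, rose by 1.68. LL lay above LD in every array of these 3 genes, and ICL was most variable in LL. The starch and acetate lists each had 1 gene called higher and 1 called lower. Of all named genes, 10.2% were called higher and 9.16% lower, so in such short lists these counts are not read as a result. Of 6 measured starch and sucrose genes, SBE2.2, a starch branching enzyme, rose by 0.55 and PWD, which phosphorylates starch for its breakdown, fell by 0.48, with a median of 0.06 over the 6. Of 5 measured ethanol and acetate genes, ICL rose and ALDH2C4, an aldehyde dehydrogenase, fell by 0.51.

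Of 7 measured genes of the dark and starvation list, which are normally turned up when carbon runs short, 5 were higher in LL and none lower, against 10.2% of all named genes called higher. IVD, which acts in leucine breakdown, had 9.69, 9.68 and 10.03 in LL, against 8.58, 8.60 and 8.91 in LD, a rise of 1.1 ± 0.23 (adjusted p = 0.00161). MCCA and MCCB, the subunits of the next enzyme complex of that pathway, rose by 0.82 and 0.76. ETFQO, which passes the electrons of this breakdown to ubiquinone, had 8.20, 8.25 and 8.63 in LL, against 7.61, 7.64 and 7.94 in LD, and rose by 0.63 (adjusted p = 0.0334). In these genes the third array was the highest of its group in LL and in LD alike. PPDK, pyruvate orthophosphate dikinase, rose by 0.43, and AKINBETA1 (0.28, adjusted p = 0.221) and D2HGDH (0.17, adjusted p = 0.528) did not pass. The count of 5 rested on few arrays: it was 3 without LL replicate 2 and 2 without LL replicate 3, LD replicate 1 or LD replicate 2, and it was 2 with the GAPDH covariate.

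Other large rises of genes with a symbol, picked after their values were seen, included genes for plastid proteins. PDF1B, a peptide deformylase that trims new plastid proteins, had 8.06, 8.09 and 8.05 in LL, against 6.73, 6.74 and 6.39 in LD, a rise of 1.45 ± 0.15 (adjusted p = 6.9e-07). LrgB, a glycolate and glycerate transporter of photorespiration, rose by 1.23 and Z-ISO, an isomerase of carotenoid synthesis, by 1.09. TAAC, the ATP/ADP carrier of the thylakoid, rose by 0.94, SECE1, a protein translocase subunit of the plastid, by 0.97, and MRL7-L and MAP1C by 1.03 each. Of 11 measured photosynthesis genes, which are also the mesophyll markers, ATPC1 (0.57) and PSBW (0.46) rose and none fell, against 10.2% of all named genes called higher, and the median was 0.27. Nuclear genes for plastid proteins also fell, as COR15A and THIC did. CHLI2, of chlorophyll synthesis, and LYC, of carotenoid synthesis, rose by 0.78 and 0.56 among 5 measured pigment genes.

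Of 69 measured transcripts encoded in the plastid itself, atpA alone was called, as lower in LL. Of all named genes, 9.16% were called lower and 10.2% higher. The values of atpA were 11.21, 11.30 and 11.08 in LL, against 11.68, 11.68 and 11.64 in LD. The median over the 69 was -0.13, and 16 of them had a positive difference. The count called lower lay between 0 and 10 over all alternatives, the highest with array weights.

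Of 4 measured cell cycle genes 3 rose, and of 19 measured genes of cell wall loosening 4 rose and 1 fell, against 10.2% of all named genes called higher and 9.16% called lower. AUR1 and AUR2, the Aurora kinases of mitosis, and PRL, the MCM7 subunit of the replication helicase, rose by 0.87, 0.76 and 0.80. AUR1 had 6.4, 5.97 and 6.04 in LL, against 5.38, 5.28 and 5.14 in LD. The expansin-like genes EXLA1 (0.95), EXLA2 (0.78) and EXLA3 (0.96) and the expansin EXPB3 (0.97) rose in the wall list. XTH19, a xyloglucan-modifying enzyme, was the one that fell, with 6.91, 6.76 and 6.84 in LL, against 8.15, 8.44 and 7.48 in LD. The cell cycle count was the same in each case in which 1 array was left out, but was 1 when only probe sets with a mean of at least 5 log2 units were tested.

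Some lists split. In the flavonoid list, UGT78D2, a flavonol and anthocyanin glucosyltransferase, fell by 1.42 ± 0.13 (adjusted p = 1.13e-07), with 7.43, 7.36 and 7.23 in LL, against 8.84, 8.60 and 8.83 in LD. Of the 8 measured genes of this list, UGT78D2 was the only one called lower, and CHIL, DFR, UGT78D1 and UF3GT rose by 0.48 to 0.68. Of all named genes, 10.2% were called higher and 9.16% lower. The LD mean of DFR was under 4 log2 units. The count of these 4 rises was 1 without LL replicate 1, without LD replicate 3 and with the GAPDH covariate, and 2 without LL replicate 2 or LD replicate 2. Of 15 autophagy genes, ATG8E (0.75), ATG8G (0.51) and ATG8F (0.47) rose, whereas their paralogs APG8A (-0.41) and ATG8B (-0.53) and the locus AT3G61960 (-0.46) fell, against 10.2% of all named genes called higher and 9.16% called lower. Of the 21 measured genes of the low oxygen list, 2 rose and 5 fell, the rises being near the 10.2% of all named genes called higher. AT3G10020 had 9.17, 8.98 and 9.17 in LL, against 10.65, 11.29 and 10.77 in LD, and fell by 1.80, and AT3G03270 fell by 1.55. Of 3 measured sulfur assimilation genes, SIR (sulfite reductase) rose by 0.56, and the ATP sulfurylases APS4 and APS3 differed by 0.40 and -0.74. The LL and LD arrays of APS3 and APS4 overlapped, and both genes lost the call under some alternatives. None of 5 measured proteasome genes was called.

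**Figure D3:**
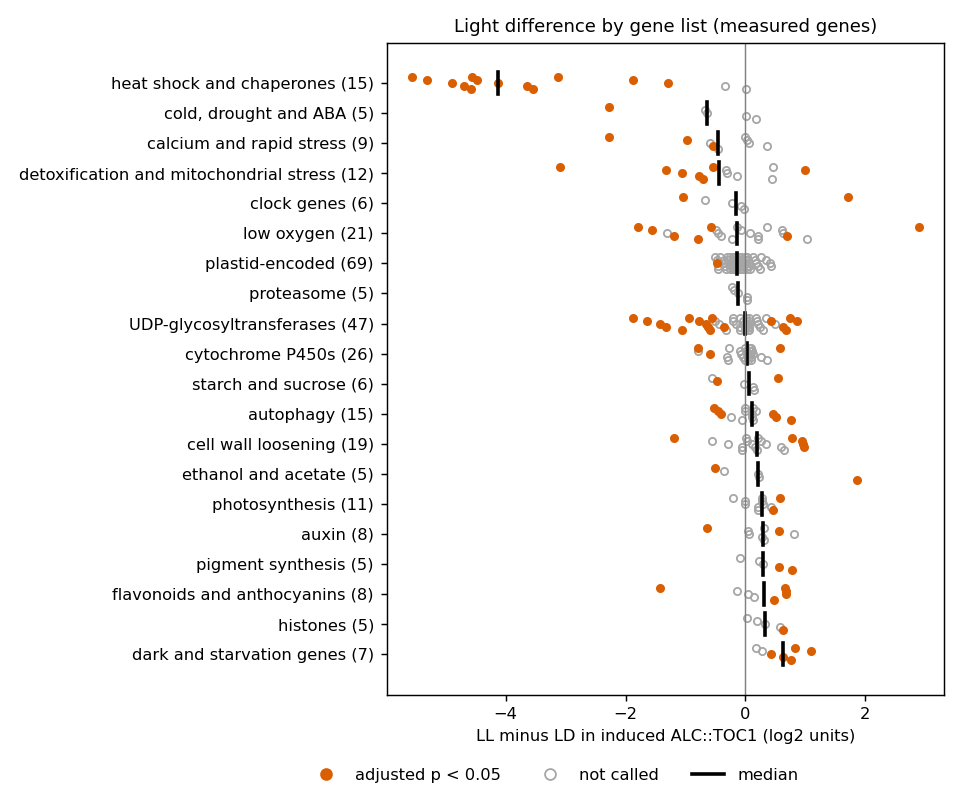
Light difference (LL minus LD, log2 units) in induced ALC::TOC1 for each measured gene of the lists with at least 5 measured genes, whose number stands in brackets. Filled points were called at an adjusted p under 0.05, open points were not, and bars are list medians, which run from -4.13 for heat shock to 0.63 for dark and starvation genes.

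Among clock genes, GI, an evening gene whose protein stabilises other clock proteins, had 5.66, 5.71 and 5.67 in LL, against 6.65, 6.53 and 6.96 in LD. It fell by 1.03 ± 0.19 (adjusted p = 0.000524), with every LL array lower. CCL, a clock-controlled transcript, had 8.12, 7.70 and 7.78 in LL, against 6.09, 6.37 and 6.0 in LD, and rose by 1.72 ± 0.18 (adjusted p = 8.1e-07). COR27 (-0.67, adjusted p = 0.133), TIC (-0.22, adjusted p = 0.0927), FIO1 (-0.07, adjusted p = 0.798) and XCT (-0.02, adjusted p = 0.933) did not pass the test. GI and CCL moved the same way in the other settings. The light difference of GI was -1.36 in mock-treated ALC::TOC1, -1.51 in ethanol-treated Col-0 and -1.38 in mock-treated Col-0, and that of CCL was 2.31, 1.14 and 1.07.

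The same light comparison could be made in 3 other settings that share no array with it: mock-treated ALC::TOC1, ethanol-treated Col-0 and mock-treated Col-0. In mock-treated ALC::TOC1, 5489 probe sets (24.1%) were called, 2904 higher (12.8%) and 2585 lower (11.4%). In ethanol-treated Col-0, 8855 (38.9%) were called, 4486 higher (19.7%) and 4369 lower (19.2%), and in mock-treated Col-0 6294 (27.7%). Of the 2551 probe sets higher in LL in induced seedlings, 1457 were also higher in mock-treated ALC::TOC1, which is 57.1% of the first list and 50.2% of the second, and of the 2440 lower ones 1474 were also lower (60.4% and 57.0%). With ethanol-treated Col-0, 1353 were shared among the higher (53.0% and 30.2%) and 1552 among the lower (63.6% and 35.5%). Probe sets called in opposite directions numbered 26 against mock-treated ALC::TOC1 and 215 against ethanol-treated Col-0. Across probe sets, which are not independent, the log2 differences correlated at 0.745 with mock-treated ALC::TOC1, 0.52 with ethanol-treated Col-0 and 0.535 with mock-treated Col-0. The median size of a difference was 0.172 in induced seedlings, 0.184 in mock-treated ALC::TOC1, 0.231 in ethanol-treated Col-0 and 0.184 in mock-treated Col-0.

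Whether the light difference of induced seedlings itself differed from that of the same line without ethanol was tested as an interaction. This comparison shares the 6 induced arrays with the first one. It called 228 probe sets (1.0%), with 90 more positive and 138 more negative in induced seedlings (98 and 96 with each array centred on its median). Of the 228, 78 had a called light difference in induced seedlings only, 87 in mock-treated seedlings only, 37 in both with the same sign and 26 in both with opposite signs. The count was 111 to 240 with 1 array left out in turn, and was 111 without LD EtOH replicate 2, 116 without LL EtOH replicate 3, 121 without LL mock replicate 2, 127 without LD mock replicate 2 and 142 without LD mock replicate 1.

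Of the 15 heat shock genes, 6 had a called negative interaction, against 0.497% of all named genes, and these 6 were the most negative interactions among named genes. AT5G37670 had 3.70, 3.75 and 3.83 in LL and 4.1, 4.08 and 4.33 in LD without ethanol, so that its light difference was -4.59 in induced and -0.41 in mock-treated seedlings, and the interaction was -4.17 ± 0.60 (adjusted p = 0.00106). AT1G52560 (-3.93, adjusted p = 0.0172) and ATHSP22.0 (-3.72, adjusted p = 0.00342) had the same form: the LD arrays of induced seedlings were high and the LL arrays of both treatments and the LD mock arrays were under 5. AT1G53540 followed at -3.78, AT1G54050 at -2.72 (adjusted p = 0.0339) and AT2G29500 at -2.62 (adjusted p = 0.0283). Hop3, with a light difference of -3.65 in induced and -2.94 in mock-treated seedlings, did not pass (interaction -0.71, adjusted p = 0.423). The median light difference of the list was -4.13 in induced and -1.12 in mock-treated seedlings. The count of 6 was 3 without LD EtOH replicate 2, 3 among probe sets with a mean of at least 5 log2 units, and 11 with array weights. AT1G52560 was not called without LD EtOH replicate 2 (adjusted p = 0.0688), and AT1G54050 lost its call in 11 alternatives.

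Outside that list, AT5G67020 was called between LL and LD in induced seedlings and in none of the other 3 settings. It had 7.59, 7.49 and 7.82 in LL, against 5.82, 5.84 and 5.0 in LD, and light differences of 2.08 in induced and 0.10 in mock-treated ALC::TOC1, 0.11 in ethanol-treated Col-0 and 0.16 in mock-treated Col-0. The interaction with ethanol was 1.98 ± 0.23 (adjusted p = 0.000281). AT3G62780 (1.47, adjusted p = 0.00204) and AT3G03680 (1.70, adjusted p = 0.00132) also had larger rises in induced than in mock-treated seedlings, and AT3G10020 a larger fall (-1.70, adjusted p = 0.00483). The fall of AT3G10020 was not particular to induced seedlings. Its light difference was -1.80 there and -1.83 in ethanol-treated Col-0, with a genotype interaction of 0.03 (adjusted p = 0.964). AT1G49000 (2.19), CYP71B23 (2.16) and AT1G65500 (2.11) had positive interactions of another form. In these 3 genes the light difference of induced seedlings was not called (0.16, -0.31 and -0.17), and that of mock-treated seedlings was -2.04, -2.48 and -2.28. Induced means in LL and LD were low: 3.4 and 3.3 in AT1G49000, 3.2 and 3.5 in CYP71B23, 4.0 and 4.2 in AT1G65500. Ethanol-treated Col-0 was as dim, with 3.3 and 3.8, 3.4 and 4.0, and 4.3 and 4.1. Whether such values lie above background was not tested.

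The light difference of induced seedlings was also set against that of ethanol-treated Col-0, which likewise uses the 6 induced arrays. This interaction called 4060 probe sets (17.8%), 1820 positive and 2240 negative. Most, 2466, had a called light difference in Col-0 only, whereas 677 had one in induced seedlings only, 557 in both with the same sign, 215 in both with opposite signs and 145 in neither. When each array was centred on its median, the median interaction over all probe sets was 0.184 instead of 0.03, and the split was 3357 positive and 1577 negative, so the balance of signs depends on scaling. Replicate 1 of the LD ethanol Col-0 group stood apart from its group in RNA quality (GAPDH 3′/5′ difference 1.58, against 0.857 and 0.951 in replicates 2 and 3).

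All 7 dark and starvation genes had positive interactions, against 7.61% of all named genes. IVD rose by 1.1 in induced seedlings and had a light difference of -0.57 in ethanol-treated Col-0, and its interaction was 1.67 ± 0.33 (adjusted p = 0.00161). In that Col-0 comparison IVD had 8.56, 8.42 and 9.47 in LL, against 9.63, 9.37 and 9.16 in LD, so that the groups overlapped. ETFQO had an interaction of 1.63, MCCA 1.44, MCCB 1.39, PPDK 1.12, D2HGDH 0.86 and AKINBETA1 0.81. The list's median light difference was 0.63 in induced and 0.46 in mock-treated ALC::TOC1, and -0.62 in ethanol-treated and -0.16 in mock-treated Col-0. The 7 calls were 6 or 7 in every alternative run, 7 with the GAPDH covariate and 7 without replicate 1 of the LD ethanol Col-0 group. In contrast, no gene of the list had a called interaction with ethanol in ALC::TOC1 (median 0.30 over the 7).

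The largest positive interactions with genotype were AT4G25580 (3.22), ICL (3.03), AT2G23110 (2.88), AT4G37220 (2.87) and AT1G72060 (2.80). AT2G23110 and AT1G72060 were not called in induced seedlings (1.04 and 0.40) and were lower in LL in ethanol-treated Col-0 (-1.84 and -2.4). ICL had a light difference of 1.85 in induced seedlings and -1.17 in ethanol-treated Col-0, which was not called. The largest negative interactions were GSTU25 (-4.37), AT1G52070 (-3.62), OSM34 (-3.56), AT5G01870 (-3.55) and GSTU20 (-3.40). AT5G01870 and GSTU20 were not called in induced seedlings (-0.13 and -0.31) and were higher in LL in ethanol-treated Col-0 (3.41 and 3.09). GSTU25, a glutathione transferase, had 9.42, 8.42 and 8.48 in LL, against 9.03, 8.62 and 7.33 in LD in induced seedlings, which overlapped, while in ethanol-treated Col-0 it was 4.83 higher in LL. OSM34 went the other way: it fell by 2.46 in induced seedlings, and its difference of 1.11 in Col-0 was not called. Its LL arrays in ethanol-treated Col-0 were spread, at 8.84, 8.14 and 5.58. OSM34 also fell in mock-treated ALC::TOC1 (-2.06, adjusted p = 0.0151), and its interaction with ethanol was not called (-0.40, adjusted p = 0.93).

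Heat shock genes had 7 negative interactions with genotype of 15, against 8.34% of all named genes: AT1G53540 (-2.53), AT1G54050 (-2.32), AT2G29500 (-2.15), ATHSP22.0 (-2.12), AT5G51440 (-1.63), Fes1A (-1.60) and Hop3 (-1.42). The fall in LL was itself shared, since 13 of the 15 were also lower in LL in ethanol-treated Col-0, 8 in mock-treated ALC::TOC1 and 9 in mock-treated Col-0. Of all named genes, 17.6%, 9.86% and 13.3% were lower in these settings. The list medians there were -2.37, -1.12 and -1.34. The LD arrays of ethanol-treated Col-0 were uneven in some of these genes (SD 1.31 in AT1G54050) and less so in others (SD 0.208 in Fes1A). AT1G54050 had 7.33, 7.56 and 6.99 in LL, against 9.08, 10.93 and 11.60 in LD there, the lowest LD value being that of the replicate that stood apart. The count of 7 was 7 without that replicate, 11 without LD ethanol Col-0 replicate 3, 14 with array weights and 4 with the GAPDH covariate.

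**Figure D4:**
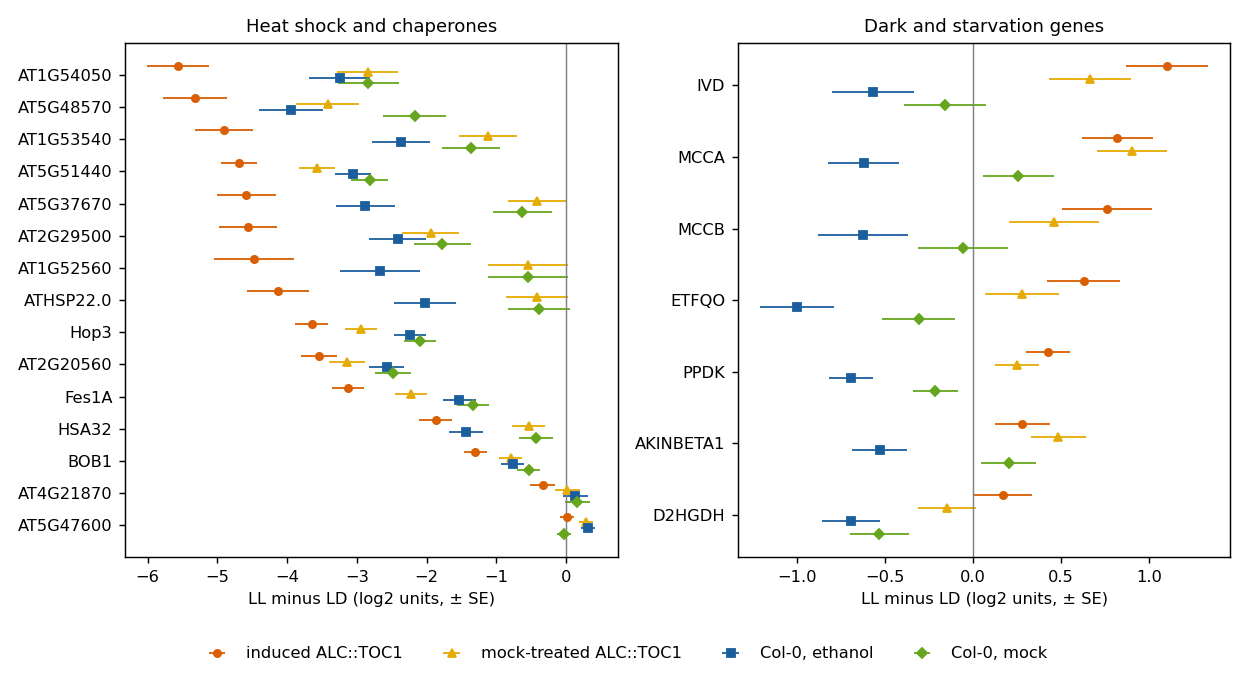
Light difference (LL minus LD, log2 units, ± SE) of the heat shock genes (left) and the dark and starvation genes (right) in induced ALC::TOC1, mock-treated ALC::TOC1, ethanol-treated Col-0 and mock-treated Col-0, each from 3 arrays against 3. Heat shock medians are -4.13, -1.12, -2.37 and -1.34 in that order, and dark and starvation medians are 0.63, 0.46, -0.62 and -0.16.

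Since TOC1 had no named probe set, probe sets were looked for that stood out in induced seedlings. They had to be higher in all 6 induced arrays than in any of the other 18 by over 0.5 log2 units. This rule was set after seeing the data. It found 23 probe sets, of which 13 could be named, and 1 probe set was lower in all 6 by that margin. Whether any of the unnamed ones measures TOC1 was not tested. Of the 23, 12 were higher in LL, none was lower and 11 were not called. Since the rule chose them for being high in these 6 arrays, these counts are a description and are not set against other probe sets. AT5G55800 had the widest gap, with 9.37, 9.78 and 9.89 in LL, against 7.72, 8.17 and 8.34 in LD, and between 3.02 and 3.73 in the other 18 arrays. Its light difference was 1.60 ± 0.17 (adjusted p = 7.57e-07).

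Of the other named ones, AT3G03680 (1.41), AT5G28430 (1.0), AT3G63360 (0.62) and AT1G01390 (0.39) were higher in LL. SBTI1.1, a subtilase, had light differences of 0.30 (adjusted p = 0.242) and GPDHp, a plastid glycerol-3-phosphate dehydrogenase, of 0.32 (adjusted p = 0.151). AT4G25780 (0.20, adjusted p = 0.584) and AT1G45160 (-0.09, adjusted p = 0.692) did not pass either, and AGL30, AT1G17665, AT1G03180 and AT4G02540 were not called. Induced arrays of LL and LD overlapped in several of these genes. That all 6 stood above the other arrays follows from the rule.

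**Figure D5:**
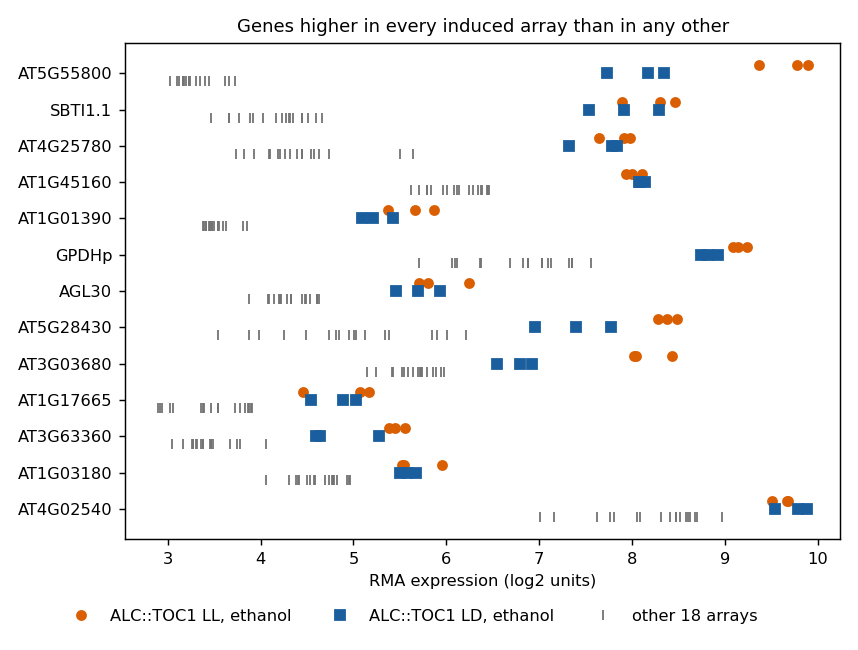
RMA expression (log2 units) of the 13 named genes that were higher in every induced ALC::TOC1 array than in any other, with the 3 LL arrays (circles), the 3 LD arrays (squares) and the other 18 arrays of the series (ticks). The genes were picked for lying above the other 18 arrays, so that separation follows from the choice. AT5G55800 has the widest gap, and 5 of the 13 were called higher in LL than in LD.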

How the data were processed

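RMA values were taken from the deposited table on their log2 scale, unchanged. The submitters' processing notes name RMA and the Bioconductor package affy, with no version. RMA subtracts background, equalises the distributions of the arrays and sums up the probes of a set, so differences are relative to each array as a whole. With arrays, precision depends on their number and no read depth applies. After 64 control probe sets of the 22810 were set aside, 22746 were tested. A single gene was annotated for 13513 of them, more than 1 for 503, and 8730 were unnamed; 13436 of the single genes were found in RefSeq (TAIR10.1). Where a gene had more than 1 probe set, the brightest was used.

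A mean per group was fitted to all 24 arrays in limma 3.58.1 (R 4.3.3, lmFit, default eBayes, 16 residual and 4.87 prior degrees of freedom), and the procedure was tested on simulated data. A call is a Benjamini-Hochberg adjusted p under 0.05 over all 22746 probe sets, two-sided. Differences are LL minus LD. RNA quality was compared with exact permutation tests.

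Of 947 list entries, 188 were measured, and 14 had been dropped because RefSeq did not give that symbol for the locus. No nitrogen assimilation gene was measured. The comparison and lists were chosen with earlier results of these data known. Named genes were the 10 largest rises and falls among called, single-gene probe sets with no overlap between groups and a higher mean of at least 6; the 3 smallest adjusted p-values of each list with 3 or more calls; the 5 largest interactions each way; and clock genes. The 20 largest rises and falls with a symbol, under the same conditions of level and no overlap, were added after seeing the values. So were the genes that complete a list. Alternatives changed the filter, scaling, fit, array weights, minimum fold, block and arrays. Replicate numbers were not taken as pairs, because deviations of LL and LD replicate 2 correlated at only 0.0777, under the 0.1 asked of every pair. Promoter, protein and genome sequence was not used here.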

Additional observations from a re-analysis of the deposited data

Results flagged for a closer look

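The following values are light differences of induced ALC::TOC1 that themselves differed, by the interaction test of limma, from those of another setting; explanations were not tested. Against mock-treated ALC::TOC1, 228 probe sets differed, and against ethanol-treated Col-0, 4060. With only 3 arrays per group, single arrays were not tested for standing apart.

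Against mock-treated ALC::TOC1, the interaction was -4.17 in AT5G37670, -3.93 in AT1G52560, -3.78 in AT1G53540, -3.72 in ATHSP22.0, -2.72 in AT1G54050 and -2.62 in AT2G29500, all heat shock genes. It was -1.70 in AT3G10020 of the low oxygen list, whose light difference was -1.83 in ethanol-treated Col-0. In that Col-0 setting AT5G37670 and AT1G52560 had called light differences of -2.88 and -2.67. Their interactions with genotype were not called. Positive interactions were 2.19 in AT1G49000, 2.16 in CYP71B23, 2.11 in AT1G65500, 1.98 in AT5G67020, 1.70 in AT3G03680 and 1.47 in AT3G62780.

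Against ethanol-treated Col-0, the heat shock genes had interactions of -2.53 in AT1G53540, -2.32 in AT1G54050, -2.15 in AT2G29500, -2.12 in ATHSP22.0, -1.63 in AT5G51440, -1.60 in Fes1A and -1.42 in Hop3. The dark and starvation genes had 1.67 in IVD, 1.63 in ETFQO, 1.44 in MCCA, 1.39 in MCCB, 1.12 in PPDK, 0.86 in D2HGDH and 0.81 in AKINBETA1. Among single genes it was -4.37 in GSTU25, -3.62 in AT1G52070, -3.56 in OSM34, -3.55 in AT5G01870 and -3.40 in GSTU20. On the positive side it was 3.22 in AT4G25580, 3.03 in ICL, 2.88 in AT2G23110, 2.87 in AT4G37220, 2.80 in AT1G72060 and 1.86 in AT3G62780.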

How the results depend on the processing

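Of the 86 named genes called for the light difference, 78 were called under all alternatives run. PPDK, DFR, APS3, APS4, CML41, CYP71B5, AT1G52070 and GSTU22 lost the call under at least 1, and AT2G23110 gained one under 3. With 1 array left out in turn, GSTU25 ranged from -0.045 (without LD EtOH replicate 3) to 0.80, and AT5G01870 from -0.59 to 0.13, turning positive without LL EtOH replicate 2 (0.066) or 3; none of these was called. Of the 10 genes named for each interaction, 8 were called under all alternatives for ethanol and 10 for genotype.

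The 4991 calls of the light difference were 3786 to 4566 with 1 array left out in turn, 717 with a minimum of 2-fold, and 7073 with array weights; the 228 of the ethanol interaction were 111 to 240, 114 and 1102, and 493 with only the compared groups in the fit; the 4060 of the genotype interaction were 2768 to 4603, 1300 and 6431. Centring each array on its median gave 98 positive and 96 negative ethanol interactions instead of 90 and 138, and quantile normalization gave 113 and 117. Why these counts moved was not tested. Numbers of LL and LD replicates correlated at 0.211, 0.0777 and 0.283, each array best with its own number, which is a hint from the data only; with the replicate number as a block, the calls were 4890, 213 and 3999. No named gene had another probe set to compare. Dim probe sets limit what can be said of genes under about 4 log2 units.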
